A study of Drosophila melanogaster with 6 samples.

Results

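MicroRNA genes were followed through 2 deposited lists from Drosophila melanogaster wing imaginal discs, the larval epithelia that form the adult wing and dorsal thorax. The genes were all those with the biotype miRNA on chromosome arms X, 2L, 2R, 3L, 3R and 4 in the RefSeq gene table of assembly Release 6, the assembly that dm6 names. They numbered 260 of 17683 annotated genes on these arms, and all 260 carry a name beginning with mir. A further 2 miRNA genes, listed under both X and Y, were left out. Larvae of both genotypes carried Act5C-GAL4, which drives expression in nearly all cells, with the temperature-sensitive repressor alphaTub84B-GAL80ts. They also carried either UASt-H3 K27M, histone H3 with lysine 27 replaced by methionine (H3K27M), or UASt-H3 K27R, with arginine in its place (H3K27R, the control). GAL80 held the transgene off at 25 °C until 44 h after egg laying. Expression then lasted 72 h at 32 °C, and 20 discs from crawling larvae aged 116 to 119 h were pooled per replicate. Each genotype had 2 CUT&RUN libraries for trimethylated lysine 27 of histone H3 (H3K27me3) and 1 IgG library. In CUT&RUN an antibody directs a nuclease to release the chromatin around a mark.

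The first list holds the H3K27me3 peaks of H3K27R discs, as 1 list shared by both replicates, per the labels. The second holds the genes called upregulated with H3K27M, as 148 intervals without expression values. Neither has a value per library, so no spread between replicates and no test across them can be given. Library depth is unknown. For the same reason, markers of the wing disc could not be read. H3K27me3 in H3K27M discs was not analysed here.

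MicroRNAs are short RNAs cut from hairpins in longer primary transcripts. Loaded into an Argonaute protein, they pair with messenger RNAs and lower their translation or stability. H3K27me3 is written by Polycomb repressive complex 2 and marks broad stretches of chromatin over silent developmental genes, and a microRNA gene can lie in such a stretch on its own, in a cluster, or inside another gene. The annotated miRNA genes here are the hairpins, with a median length of 92 bp, and not the primary transcripts.

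Of the 260 miRNA genes, 20 lay in an H3K27me3 peak of H3K27R discs, and each of the 20 was covered over 100% of its length. They were mir-4981, mir-993, mir-iab-4, mir-iab-8, mir-285, mir-4946, mir-985, mir-8, mir-4984, mir-4941 and 10 genes of a single cluster on X. The share was 7.69% for miRNA genes (exact 95% binomial interval 4.76 to 11.6%), against 7.22% for protein-coding genes and 7.67% for all annotated genes. These shares are close to each other. The intervals cover counting error over genes only, and neighbouring genes under 1 peak are not independent. Peaks covered 7.38% of the 133.6 Mb of annotated arm length.

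Gene length enters that comparison, because a long gene can touch a peak with a small part of its span. Judged by the gene's midpoint, a measure chosen after the data were seen, 7.69% of miRNA genes lay in a peak, against 4.42% of protein-coding genes and 5.30% of all genes. Other classes of short RNA genes had lower shares on either measure, with 2 of 269 small nucleolar RNA genes (0.743%) and 8 of 290 transfer RNA genes (2.76%) in a peak. Long non-coding RNA genes had 14.9%. The cluster on X supplied 10 of the 20 miRNA genes in peaks, and without the genes of that domain the share was 10 of 250 (4.00%). The differences between gene classes were not tested.

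**Figure D1:**
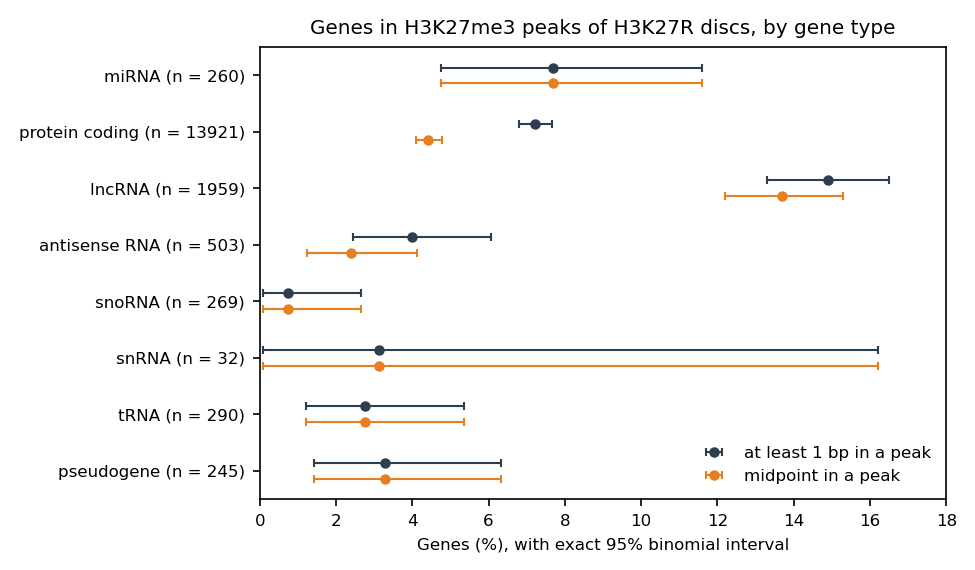
Share of genes of each type, in percent (x axis), that overlapped an H3K27me3 peak of H3K27R discs by at least 1 bp (dark points) or had their midpoint in one (orange points), with exact 95% binomial intervals over genes. For miRNA genes both points stand at 7.69%, whereas protein-coding genes stand at 7.22% and 4.42%.

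Every miRNA gene in a peak lay in a broad domain that also held a protein-coding gene. A domain here joins peaks that lie within 5000 bp of each other, and broad means at least 10000 bp. There were 20 miRNA genes inside 10 such domains and 0 outside. Of all 748 domains, 239 were at least 10000 bp wide, which is a share of domains and not of genes in peaks. The same count was not made for other genes in peaks, so it does not set miRNA genes apart. The narrowest of the 10 domains were those of mir-4941 (10872 bp), mir-4984 (18259 bp) and the cluster on X (28392 bp), and no miRNA gene in a peak had a domain under 10000 bp. The picture was less uniform for single peaks. Of the 20 genes, 16 lay in a peak that was itself at least 10000 bp wide, and mir-4981, mir-993, mir-4984 and mir-4941 lay in smaller peaks of their domains. For the 10 peaks over miRNA genes the median width was 24321 bp and the median fold enrichment 7.87, against 1058 bp and 2.39 for all 1709 peaks. Fold enrichment and the −log10 q-value are the authors' own values for a peak, and no test was made of the difference. Wide peaks meet a gene of given length more readily than narrow ones.

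**Figure D2:**
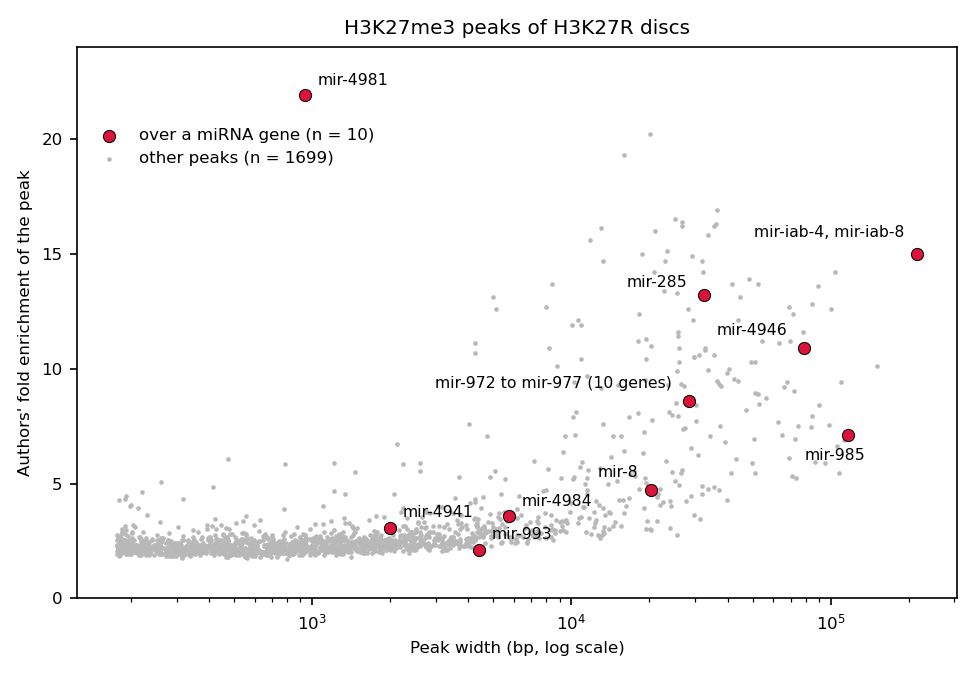
Authors' fold enrichment (y axis) against peak width in bp (x axis, log scale) for the H3K27me3 peaks of H3K27R discs, with the 10 peaks over miRNA genes in red. The peak of mir-4981 stands alone at 939 bp and 21.9-fold, and the peak of mir-iab-4 and mir-iab-8 is the widest at 215285 bp.

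The miRNA genes of the Hox complexes stood in or beside peaks. Of the 4 listed, mir-iab-4, mir-iab-8 and mir-993 were in a peak and mir-10 was not. For all miRNA genes the share in a peak was 7.69%, and for all annotated genes it was 7.67%. This list was chosen with earlier results of these data known, so its count does not measure an excess. The gene mir-iab-4 and its partner mir-iab-8 are read from opposite strands of 1 hairpin in the bithorax complex and are known to act on the Hox genes Ubx and abd-A. The table gives both the same interval (3R 16856275 to 16856342), so they are 2 genes but 1 place. It lay 93782 bp inside the nearer edge of the widest peak of the list (215.3 kb, 15.0-fold, −log10 q-value 127). That peak covered abd-A and Abd-B over 100% of their spans, with abd-A 26226 bp and Abd-B 70870 bp from the hairpin. It also covered MSAmiP, in whose span the hairpin lies.

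In the Antennapedia complex the only listed miRNA gene in a peak, mir-993, had a low fold enrichment. The domain around Dfd, the Hox gene of the posterior head, spanned 43.1 kb in 7 peaks. Its main peak, 26639 bp wide at 16.4-fold, covered Dfd over 100% but held no miRNA gene. The gene mir-993 (3R 6776333 to 6776451) lay in a separate peak of 4410 bp, 1552 bp away from the main one, at 2.11-fold and a −log10 q-value of 2.54. That is the lowest fold enrichment among the 10 peaks over miRNA genes, and it ranked 1355 of 1709 peaks by that value. At the other end of the domain, mir-10 (3R 6809506 to 6809582), a deeply conserved Hox complex miRNA, fell in a gap. It stood 267 bp from a peak of 1240 bp (2.45-fold) and 481 bp from one of 1014 bp (2.04-fold). The 6 small peaks on both flanks of this domain stood at 2.04- to 2.85-fold.

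The largest group lay on X, in a cluster of testis-expressed miRNA genes that is known for rapid evolution. Its 12 genes span 10.8 kb, from mir-972 to mir-979. The first 10 of them, mir-972, mir-9369, mir-973, mir-974, mir-2499, mir-4966-1, mir-4966-2, mir-975, mir-976 and mir-977, lay in a single peak of 28392 bp at 8.60-fold (X 19532135 to 19560526, −log10 q-value 60.4). The last 2 were outside it, mir-978 at 710 bp and mir-979 at 1311 bp past its edge. The boundary fell between mir-977, 1406 bp inside the edge, and mir-978. It also fell inside Grip84, a gene of the gamma-tubulin ring complex, which was covered over 17.3% of its length. The 2 miRNA genes outside the peak lie within the span of Grip84, whereas the 10 inside it do not. On the other side of the cluster, CG32532 was covered over 98.2% and lay at the domain's start. Among clusters of miRNA genes this was the only one with members both in and out of a peak.

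Outside the Hox complexes and the X cluster, 4 miRNA genes lay in peaks of at least 10000 bp: mir-8, mir-285, mir-985 and mir-4946. All but mir-8 shared their peak with a gene of a known developmental regulator, picked from the covered genes after they were seen. How many other wide peaks hold such a gene was not counted. The gene mir-8, the fly member of the miR-200 family and a promoter of growth, lay at 2R 16831432 to 16831518 in a peak of 20250 bp at 4.72-fold (−log10 q-value 20.5). It was 2105 bp inside the edge. Its domain of 48.7 kb held 5 peaks and 4 short protein-coding genes (CG34459, Ugt37C1, CG5550 and CG34460), each covered over 100%, none of which contains mir-8. The gene mir-285, related to the miR-29 family, lay at 3L 11946093 to 11946191 in a peak of 32582 bp at 13.2-fold (−log10 q-value 113). This peak covered byn, the T-box factor of the hindgut, over 100% at a distance of 10174 bp. Nearer to mir-285 were CG5883 (1241 bp), CG7252 (1484 bp) and Rpt4R (2608 bp), each also covered over 100%. The domain held 13 protein-coding genes, the most of the 10 domains, and the other 5 peaks of it were at 1.94- to 2.80-fold.

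The gene mir-985 (X 16191254 to 16191339) lay between disco-r and disco, zinc finger factors of ventral appendages, which were both covered over 100%. Its peak, the third widest of the list, spanned 116329 bp at 7.13-fold (−log10 q-value 41.3), and mir-985 was 31415 bp from its edge. The gene mir-4946 (2L 18867046 to 18867161) lay within tup, a LIM homeodomain factor of the dorsal thorax, which was covered over 98.7%. The peak there spanned 78850 bp at 10.9-fold (−log10 q-value 81.9) and reached into ssp3, covered over 80.7%.

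The peak with the highest fold enrichment of the whole list stood over mir-4981. This miRNA gene (2R 8015249 to 8015343) lay in a peak of 939 bp at 21.9-fold with a −log10 q-value of 210.1. By width it ranked 908 of 1709. It was separated by 1974 bp from a peak of 41688 bp at 13.7-fold that covered Optix, a homeodomain factor of eye development, over 100%. On its other side stood peaks of 1584 bp (2.29-fold) and 219 bp (2.52-fold). The nearest protein-coding gene, CG14762, was 1494 bp from the miRNA gene, and Optix 15940 bp. The highest fold enrichment of a peak in the domain was thus not that of the wide peak over Optix. Each peak has a single value for its whole width, so local signal within the wide peak could not be compared.

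The other 2 miRNA genes in small peaks lay inside protein-coding genes with partial cover. The gene mir-4984 (2L 8141540 to 8141662) is within PAPLA1, which encodes a phospholipase and was covered over 58.4%. Its peak was 5725 bp wide at 3.58-fold (−log10 q-value 10.2), and the edge was 213 bp away. The gene mir-4941 (3L 16031189 to 16031291) is within Notum, the secreted inhibitor of Wnt signalling, which was covered over 41.6%. Its peak was 1998 bp wide at 3.08-fold (−log10 q-value 6.66), and at 136 bp it was the closest of the 20 genes to a peak's edge. Its peak had the highest fold enrichment of the 4 peaks in that domain, which stood at 2.39- to 3.08-fold and filled 54.4% of it.

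**Figure D3:**
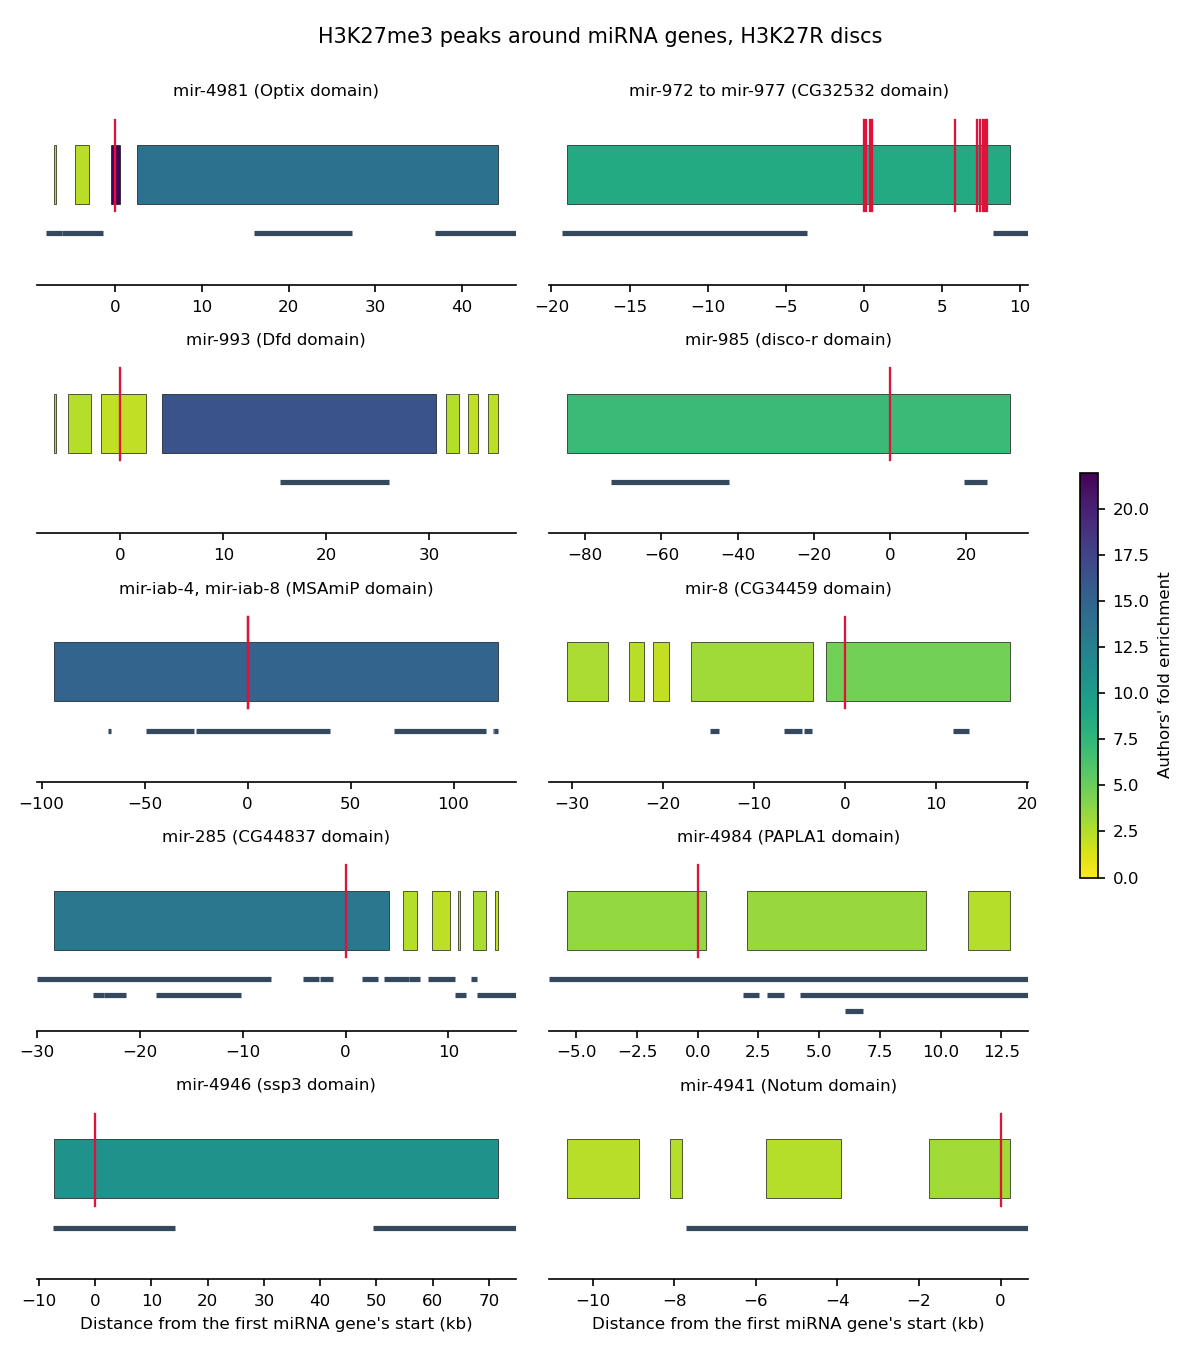
The 10 domains that hold miRNA genes in peaks, as distance in kb from the start of the first miRNA gene (x axis, scale set for each panel). Boxes are H3K27me3 peaks coloured by the authors' fold enrichment, red lines are miRNA genes in a peak, and dark bars are protein-coding genes, drawn on separate levels where they overlap. The peak at mir-4981 is narrow and the darkest at 21.9-fold, and the peaks at mir-993, mir-4984 and mir-4941 stand at 2.11- to 3.58-fold.

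Most miRNA genes sit inside a protein-coding gene, and those were seldom in a peak. Of 166 miRNA genes inside the span of a protein-coding gene, 5 were in a peak (3.01%): mir-4984, mir-4946, mir-4941, mir-iab-4 and mir-iab-8. Of the 94 outside such spans, 15 were (16.0%), against 7.69% of all miRNA genes and 7.67% of all annotated genes. Without the domain of the cluster on X, the share outside such spans was 5 of 84 (5.95%). These differences were not tested. A marked host did not always carry the mark over its miRNA gene. Of 19 miRNA genes whose host gene itself overlapped a peak, 5 were in one. The other 14 included mir-4985 of Fatp3, 39 bp from a peak, mir-2282 at 1028 bp in sty, a receptor tyrosine kinase inhibitor, and mir-4944 at 1753 bp in hth, a homeodomain factor of proximal appendages.

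The arms differed mainly through the same cluster. On X, 11 of 58 miRNA genes were in a peak (19.0%), against 5.10% of protein-coding genes on X. Without the genes of the cluster's domain, 1 of 48 remained (2.08%), namely mir-985. On the other arms the share was lower for miRNA genes than for protein-coding genes. It was 2 of 56 on 2L (3.57%), against 8.39% of protein-coding genes, and 2 of 55 on 2R (3.64%), against 7.09%. It was 2 of 31 on 3L (6.45%), against 7.05%, and 3 of 58 on 3R (5.17%), against 7.83%. On chromosome 4 it was 0 of 2, against 11.2%. These differences rest on few miRNA genes per arm and were not tested. They are by at least 1 bp of overlap, which long genes meet more readily, and shares by midpoint were not counted per arm. Counted as clusters of miRNA genes within 10000 bp of each other, 10 of 198 held a peak (5.05%), and 8 of these were genes standing alone. The other clusters of 5 or more genes had no member in a peak.

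The 240 miRNA genes without a peak were mostly far from one. Their median distance was 86.3 kb, with quartiles of 41.1 and 176.0 kb, against 75.9 kb for protein-coding genes without a peak, with quartiles of 28.2 and 159.1 kb. Within 5000 bp of a peak stood 20 of them (8.33%), against 6.05% of protein-coding genes. The nearest 5 were mir-4985 (39 bp), mir-10 (267 bp), mir-bft (392 bp), mir-978 (710 bp) and mir-929 (849 bp). The gene mir-bft, also called mir-263a, protects sensory bristles from cell death. Like mir-10, it lay in the gap of a domain, 392 bp and 668 bp from peaks of 2.45- and 2.37-fold. That domain of 12.1 kb held no protein-coding gene. The farthest 5 were mir-2279 at 3158.9 kb, mir-2490 at 1134.9 kb, and mir-10404-5, mir-10404-4 and mir-10404-3 at 897.4, 650.7 and 564.4 kb.

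Over 7 lists of miRNAs, with 72 different genes, 10 were in a peak, against 7.67% of all annotated genes. Of these, 9 were the Hox complex and X cluster genes already given and the other was mir-8. The lists were chosen with earlier results of these data known, so the count does not measure an excess. Among 15 growth, wing and cell death miRNAs mir-8 was the 1 in a peak (6.67%), close to the 7.69% of all miRNA genes and the 7.67% of all annotated genes. In that list mir-ban (bantam), which promotes growth and blocks cell death, stood 27.8 kb from the nearest peak, mir-9a, which refines sensory organ choice, 78.5 kb, and mir-7, which acts in photoreceptor choice, 278.5 kb. The nearest of that list without a peak were mir-bft at 0.4 kb, mir-276b at 3.1 kb and the growth regulator mir-278 at 5.2 kb. None of the 3 genes of the let-7 complex, which times metamorphosis, was in a peak, and they stood 242.5 to 243.4 kb away. None of the 7 muscle and neural miRNAs was, with mir-1 of muscle at 200.2 kb and mir-124 of neurons at 167.0 kb. At the share of all miRNA genes, lists of 3 and 7 would hold fewer than 1 gene in a peak, so these counts do not set the lists apart.

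Of the 13 miRNA genes of the mir-2 family and its K box relatives, 0 lay in a peak, a count that is near what the 7.69% of all miRNA genes gives for so short a list. The nearest was mir-308, within the ribosomal protein gene RpS23, 879 bp from a peak of 19414 bp at 5.04-fold over Sox15, and mir-11, within the cell cycle gene E2f1, stood at 52.7 kb. All 8 genes of the mir-309 cluster, which is active in the early embryo, stood 166.5 to 167.5 kb from a peak. They are 1 place in the genome, and 3 of them, mir-6-1, mir-6-2 and mir-6-3, are also on the K box list. Among 25 testis-enriched genes in 4 clusters of miRNA genes, 6 were in a peak (24.0%), against 7.67% of all annotated genes. These 6 were all from the mir-972 cluster and lay under a single peak. The cluster from mir-959 to mir-964 stood 53.3 to 54.5 kb away, and that around mir-310 stood 299.2 to 300.8 kb away. That from mir-982 to mir-984 stood 3.4 to 6.3 kb from a peak of 246 bp. This small peak is part of a domain of 156649 bp in which bi has the longest covered length.

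**Figure D4:**
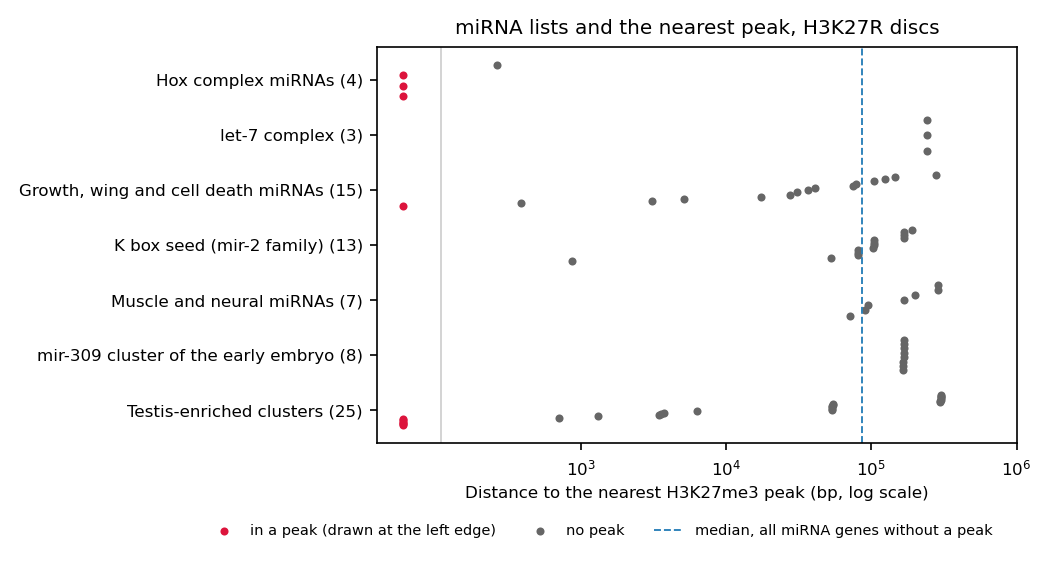
Distance in bp from each miRNA gene of the 7 lists to the nearest H3K27me3 peak of H3K27R discs (x axis, log scale), with 1 point per gene and genes in a peak in red at the left edge. Most grey points stand far to the right, around the median of 86.3 kb for all miRNA genes without a peak (dashed line). The grey points of mir-10, mir-bft, mir-978 and mir-308 stand under 1 kb.

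No miRNA gene was among those called upregulated with H3K27M. The count was 0 of 260, which allows a share of up to 1.15% (3 counts), against 0.837% of all annotated genes and 0.941% of protein-coding genes. At the share of all genes 2.18 would be listed, so a lower share was not detectable. Length bears on this count. The shortest listed gene, lncRNA:CR40469, is 214 bp long, the longest miRNA gene is 174 bp, and 0 of 1008 annotated genes under 200 bp were listed. The sources used here do not say whether the RNA libraries behind the list could measure such short genes.

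Some miRNA genes lay within or near listed genes. With at least 1 bp of overlap, 4 met a listed interval: mir-4945 in sals, a sarcomere length gene of muscle, mir-1007 and mir-2535b in Abca3, and mir-9381 in lncRNA:mimi. These 4 stood 41328 to 262811 bp from the nearest peak. A further 3 were within 10000 bp of a listed gene, namely mir-2501, mir-4955 and mir-4956. Of these 7, 0 were in a peak, and the 7.69% of all miRNA genes would give fewer than 1. Of the 20 miRNA genes in peaks, mir-4941 was nearest to a listed gene, at 26.5 kb from hzg, followed by mir-993 at 43.7 kb from 7SLRNA:CR42652. The X cluster stood 360.1 to 368.0 kb from HP1D3csd, and mir-4946, the farthest, 2190.5 kb from CG9265. Of the 40 protein-coding genes in the 10 domains, 0 were on the list, where the 0.941% of all protein-coding genes would give fewer than 1.

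The genes that make and use microRNAs carried no peak and were not listed. All 13 of the pathway list were without a peak and without a listed interval, against 7.22% of protein-coding genes with a peak and 0.941% listed. At those shares so short a list can well hold none, so these counts do not set the pathway apart. The 13 genes include drosha and pasha, whose products act together in cutting the primary transcript, and Ranbp21, the export receptor. They also include Dcr-1 and loqs, which act together in cutting the hairpin, and AGO1 and gw, which silence the target. The list also holds Dcr-2, r2d2, AGO2 and Hen1 of the short interfering RNA branch, and Nbr and Tailor, which trim or tail the ends of small RNAs. Tailor was 1.6 kb from a peak, and the others stood 37.6 to 272.1 kb away.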

How the data were processed

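Per the submitters' processing notes, Bowtie2, MACS2 and build dm6 were used; the sources used here give no versions, peak threshold or background library. Per the file layout, the deposited peak list gives for each peak the authors' fold enrichment (a ratio), −log10 q-value and an integer score, which was not used. The deposited list of upregulated genes holds intervals and strand; its other column is 0 throughout and carries no score or unit. Files were read with Python 3.11.15 and pandas 2.3.3, and intervals with scipy 1.17.1 (exact binomial).

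Genes came from the RefSeq table of Release 6, with 1 gene out of positional order left out. Overlap needed at least 1 bp, and a listed gene an interval equal to the base; all 148 intervals matched a gene. Distances run from span to span. A domain was named by the protein-coding gene with the longest covered length. Overlap functions were tested on simulated data. The table gives no strand, so hosts are on either strand.

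Members and lists were chosen with earlier results of these data known. Of 72 list names, 3 were matched by synonym. Every miRNA gene in a peak was named; among others, the 5 nearest, the 5 farthest, list members and pathway genes could be named, and further ones were chosen after their values were seen. No test was made. Seed families were not analysed here.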

Additional observations from a re-analysis of the deposited data

How the results depend on the processing

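No paired analysis was possible because neither list holds a value per replicate, and no replicate could be left out for the same reason. The count of 20 miRNA genes in peaks was 18 to 26 with a −log10 q-value minimum of 10, with only peaks not below the median fold enrichment, with at least 50% or 100% of the span covered, with spans extended by 1000 bp, by midpoint or by distinct interval. It was 40 with spans extended by 5000 bp on each side, 10 with genes within 10000 bp counted as 1 cluster, and 10 without the domain of mir-972. The count outside broad domains with a protein-coding gene, 0, was 4 with peaks not merged, 2 with broad set at 20000 bp, and 1 with the −log10 q-value minimum of 10. Inside them it was 16 to 20 throughout. With that stricter peak threshold the median distance of 86.3 kb became 236.6 kb, since fewer peaks were left, and the median fold enrichment of 7.87 became 9.73. The 0 listed miRNA genes became 4 with any overlap. The midpoint, distinct-interval and mir-972 alternatives, and the stricter threshold for fold enrichment and for the lists, were chosen after seeing the data. Depth is unknown, so absence of a peak is not absence of the mark.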
